A study of Mus musculus with 6 samples.

Results

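The genes described here are Bach1 and its relative Bach2, Nrf2 (gene symbol Nfe2l2) with its inhibitor Keap1, the small Maf partners Mafk and Mafg, and the target genes Hmox1, Nqo1, Gclm and Blvrb. They are 10 of the 24376 genes listed in the expression tables and were chosen by name. The choice was made when Bach1 was already known to be lower in the shSamd14 libraries, so the difference between the groups is given for these 10 genes as a description and supports nothing by itself. RNA with a poly(A) tail was sequenced from blood progenitors of C57BL/6 mouse fetal liver at the embryonic stage E14.5. The progenitors were enriched with a commercial kit, infected at once with a retrovirus and kept for 3 days in StemPro-34 medium. In 3 libraries the virus carried a control short hairpin RNA, and in 3 it carried one against Samd14, which lowers the transcripts it pairs with. Strain, stage, infection, culture and the final sort were common to both groups, and each library came from 200000 cells without surface CD71 and Ter119, proteins of maturing red cells. The sources used here give neither the control hairpin's target nor a hairpin sequence, and each group carries a single hairpin label. No label states whether libraries of a group stem from different mice or cultures, so a p-value measures only the spread between these libraries, which may be technical.

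Bach1 and Nrf2 are transcription factors that compete for the same DNA, the antioxidant response element or Maf recognition element, each as a dimer with a small Maf protein. Bach1 represses genes there until heme binds it, after which it leaves the DNA and is degraded, while Nrf2 activates them once oxidants stop Keap1 from sending it to degradation. In cells of the red lineage this pair links the supply of heme to heme breakdown, iron storage, antioxidant enzymes and globin genes. The comparison asks whether genes that Bach1 is described as repressing are higher in the libraries in which its transcript is lower.

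Each library held between 20584169 and 26462797 estimated counts, so that 3 counts correspond to 0.113 to 0.146 CPM (read counts relative to library size, scaled between libraries with TMM factors). Samd14, which the hairpin targets, had 82.6 ± 1.04 CPM in the controls and 40.0 ± 1.64 CPM in the shSamd14 libraries (mean ± SD, n = 3), a fold of 0.484 with an adjusted p of 4.69e-07 (edgeR's quasi-likelihood test, Benjamini-Hochberg adjustment over all genes). Of 12670 genes tested, 2.58% passed an adjusted p of 0.05, 1.32% higher and 1.26% lower. Although the cells were sorted as CD71-negative, Tfrc, which encodes CD71, had 934 CPM in the controls and 824 CPM in the shSamd14 libraries. The summed level of 4 progenitor markers was 961.8 to 1136 CPM in the controls and 955.2 to 967.5 CPM in the shSamd14 libraries. Of these, Kit lay below every control, with means of 570 CPM in the controls and 454 CPM in the shSamd14 libraries. Gata2 lay above every control (71.5 and 85.1 CPM), Cd34 and Myb overlapped, and none of the 4 passed the test. All 5 megakaryocyte markers lay above every control, with sums of 221.1 to 249.6 CPM and 291.6 to 301.4 CPM, and 2 of them, Pf4 and Gp5, passed the test. Macrophage marker sums, which bear on Hmox1, were 29.57 to 50.82 CPM in the controls and 32.5 to 46.79 CPM in the shSamd14 libraries. Csf1r averaged 24.0 CPM in the controls and 23.6 CPM in the shSamd14 libraries, Cd68 10.5 and 8.49 CPM, and Adgre1 4.79 and 3.74 CPM. Vcam1 had 0.711 and 1.36 CPM with its groups apart, and none of these genes passed the test. Cd163, Mrc1 and Marco had too few counts to be tested, and C1qa was at 0 in all libraries. In bulk RNA, fewer cells of a type and less RNA per cell cannot be told apart.

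Bach1 (ENSMUSG00000025612; mm10 chromosome 16, 87698945 to 87733346, plus strand) was the one gene of the 10 whose groups did not overlap in CPM. It had 91.9, 79.9 and 89.4 CPM in control libraries 1, 2 and 3, and 58.5, 60.9 and 63.6 CPM in the shSamd14 libraries. The lowest control library thus lay above the highest shSamd14 library. The means were 87.1 ± 6.31 and 61.0 ± 2.58 CPM (SD, n = 3), a fold of 0.701 with a 95% interval of 0.633 to 0.776. On the TPM scale, the share of all transcripts after division by gene length, the controls had 26.74, 22.05 and 24.68 and the shSamd14 libraries 16.05, 17.28 and 18.53. The log2 fold change was -0.51 with an SE of 0.07, and it ranged from -0.57 to -0.48 when any 1 of the 6 libraries was left out. Since this difference is what the set was selected on, no p-value is given for it.

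**Figure D1:**
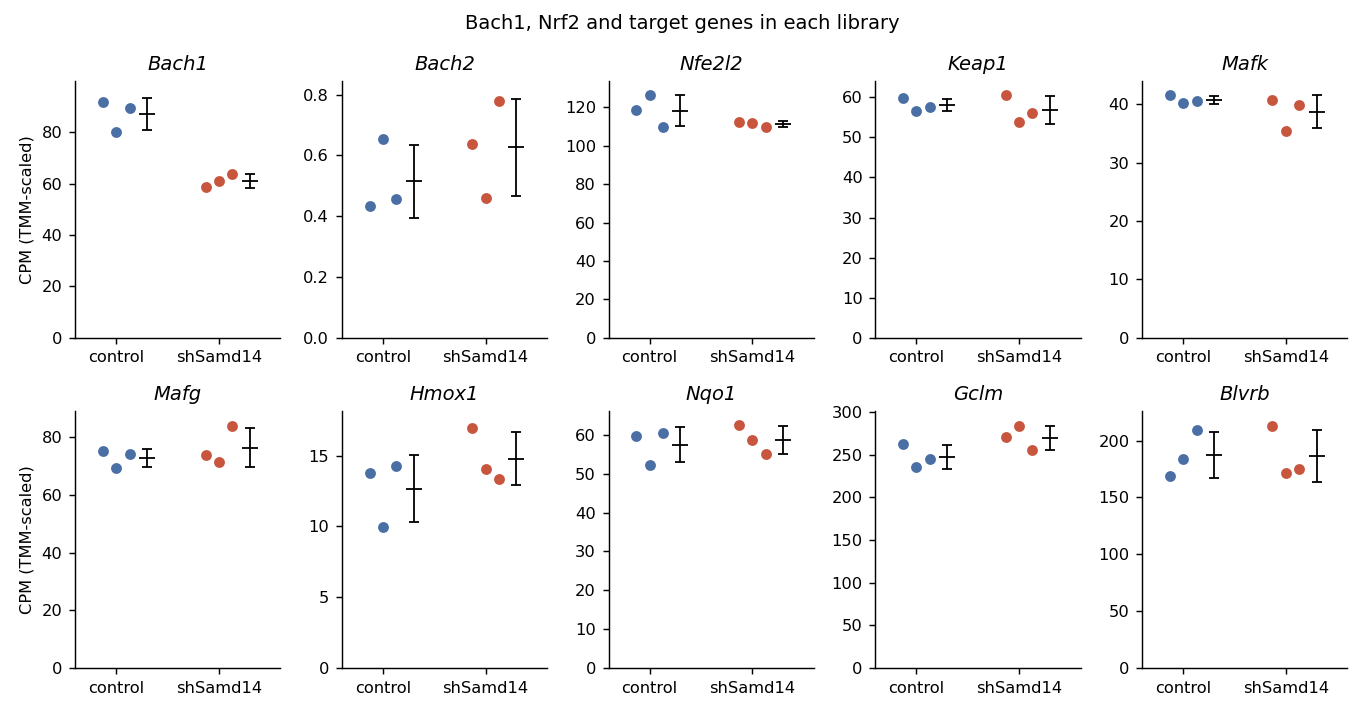
Expression of the 10 genes in CPM (linear axes from 0), with 1 point per library, control in blue and shSamd14 in red, and the mean ± SD of 3 libraries in black. Bach1 falls from between 79.9 and 91.9 CPM to between 58.5 and 63.6 CPM, and in each of the other 9 panels the points of the groups overlap.

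The 3′ untranslated region (UTR) of Bach1 is shown because it holds short words that were frequent among the genes that fell. The 7-base words CAAGTGT and AAGTGTA, which overlap each other, stood in the longest annotated 3′ UTR of 22.8% of 11870 tested genes searched, on the transcript strand. They stood in 58% of the genes that passed as lower, in 24.7% of those that passed as higher and in 22.2% of those that did not pass. The words were found in an earlier look at these same libraries, so those shares are no independent evidence. Bach1 holds them at 3 places in a 3′ UTR of 3475 bases, and Samd14 holds them at 1 place. The places are printed 5′ to 3′ with the words in capitals, from the GENCODE M21 transcripts (GRCm38, the assembly of mm10).
Bach1, plus strand, chr16:87730444-87730470: acaaaccagaAAGTGTAtcatcgttcc
Bach1, plus strand, chr16:87731957-87731983: ctggtttacaAAGTGTAaaatcttata
Bach1, plus strand, chr16:87732217-87732244: ggtaattggcCAAGTGTAatatttctta
Samd14, plus strand, chr11:95026005-95026031: cgtgaagagcCAAGTGTgcccacctgc
The third Bach1 place and those of Mafg and Gclm hold both words in 1 run of 8 bases.
Mafg, minus strand, chr11:120628950-120628977: tgcacgtgggCAAGTGTActggtcttgg
Gclm, plus strand, chr3:122270236-122270263: ccgcagtacaCAAGTGTAaccaccagtg
Bach2 held the words at 2 places and Nfe2l2 at 1, so 5 of the 10 genes held them, and 4 of these 5 did not pass the test. Keap1, Mafk, Hmox1, Nqo1 and Blvrb held none, in 3′ UTRs of 972, 2134, 570, 594 and 267 bases. Those of Bach2, Mafg, Gclm and Nfe2l2 have 5812, 4167, 4335 and 448 bases. A longer 3′ UTR has more room for such words, and the shares given here were not matched for length. The words CTGATTA and TGATTAA, found in 59.6% of the genes that passed as higher and in 14.9% of all genes searched, stood in none of the 10. The part of these words in the level of Bach1 was not tested.

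**Figure D2:**
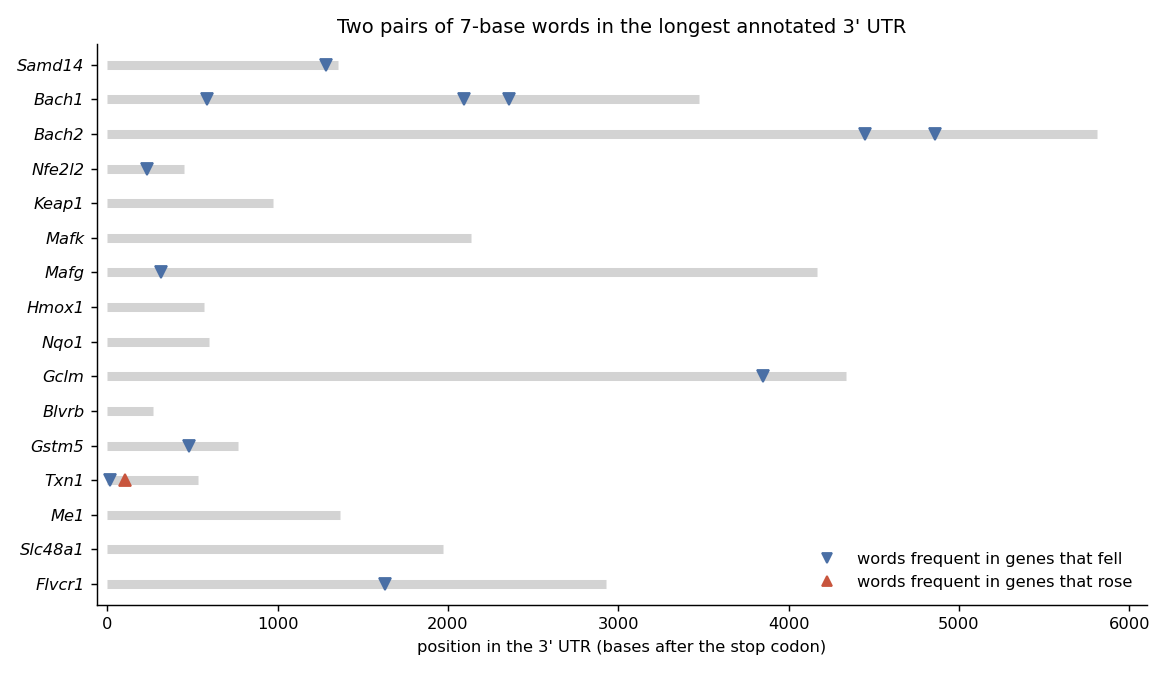
Position of the words in the longest annotated 3′ UTR, with bases after the stop codon on the x axis and 1 gene per line (grey, the length of the UTR). Blue triangles mark CAAGTGT or AAGTGTA and red triangles CTGATTA or TGATTAA. Bach1 holds blue marks at 3 places, and the only red mark is in Txn1.

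Bach2 (ENSMUSG00000040270; chromosome 4, 32238804 to 32586108, plus strand), the related repressor known from lymphocytes, was close to the limit of detection. Its counts were 9, 15 and 11 in the controls and 16, 11 and 21 in the shSamd14 libraries, or 0.435, 0.653 and 0.458 CPM against 0.639, 0.461 and 0.778 CPM. The groups overlapped, and the 95% interval of the log2 fold change, -0.43 to 1.0, leaves its direction unresolved at this depth.

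Nrf2 itself did not pass the test. Nfe2l2 (ENSMUSG00000015839; chromosome 2, 75675513 to 75704641, minus strand) had 118.6, 126.4 and 110.0 CPM in the controls and 112.4, 112.1 and 109.7 CPM in the shSamd14 libraries. All 3 shSamd14 values lay in the lower part of the control range or just under it, and the fold was 0.941 with a 95% interval of 0.857 to 1.03. Keap1 (ENSMUSG00000003308; chromosome 9, 21229730 to 21239361, minus strand), the adaptor that hands Nrf2 to its ubiquitin ligase, had 59.8, 56.7 and 57.7 CPM against 60.7, 53.9 and 56.1 CPM. Its groups overlapped, with a log2 fold change of -0.03 (95% interval -0.17 to 0.11). Keap1 shares its locus with an antisense gene of 3.64 CPM, and whether the counting used strand is not stated in those sources. These are transcript levels, and both Bach1 and Nrf2 are known to be controlled mostly as proteins, which were not measured here.

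The small Maf proteins, which have no activation domain and are the obligate partners of both factors, had overlapping levels. Mafk (ENSMUSG00000018143; chromosome 5, 139791513 to 139802653, plus strand) had 41.6, 40.3 and 40.6 CPM in the controls and 40.8, 35.5 and 39.9 CPM in the shSamd14 libraries, with the lowest value in shSamd14 library 2. Its log2 fold change was -0.07 with a 95% interval of -0.23 to 0.08. Mafg (ENSMUSG00000051510; chromosome 11, 120625117 to 120633600, minus strand) had 75.4, 69.2 and 74.1 CPM against 73.8, 71.5 and 84.1 CPM. The highest of these is shSamd14 library 3, and without it the log2 fold change of Mafg turns from 0.07 to -0.01. Mafg overlaps Sirt7 on the same strand (44.4 CPM), so reads can be shared between them.

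Hmox1, the enzyme that opens the heme ring and the best known gene repressed by Bach1, had a higher mean in the shSamd14 libraries but did not pass. Hmox1 (ENSMUSG00000005413; chromosome 8, 75093621 to 75100589, plus strand) had 13.8, 9.93 and 14.3 CPM in the controls and 16.9, 14.1 and 13.4 CPM in the shSamd14 libraries. Control library 2 was low and shSamd14 library 1 was high, while the other 4 libraries lay between 13.4 and 14.3 CPM. The means were 12.7 ± 2.38 and 14.8 ± 1.88 CPM (SD, n = 3), a fold of 1.17 with a 95% interval of 0.948 to 1.44. Macrophages, which express Hmox1 strongly, are one other cell type of this tissue. The 8 macrophage markers summed to 40.04, 29.57 and 50.82 CPM in the controls and 32.5, 32.98 and 46.79 CPM in the shSamd14 libraries. Their part in the Hmox1 level was not tested.

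Blvrb, the biliverdin reductase that acts after heme oxygenase and is abundant in red cells, did not pass. Blvrb (ENSMUSG00000040466; chromosome 7, 27447978 to 27466144, plus strand) had 169.1, 183.8 and 209.5 CPM in the controls and 212.7, 171.8 and 175.3 CPM in the shSamd14 libraries. The highest library of each group, control 3 and shSamd14 1, had almost the same level. The fold was 0.995, and the 95% interval of the log2 fold change was -0.23 to 0.21.

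The other target genes serve redox defence. Nqo1 (ENSMUSG00000003849; chromosome 8, 107388225 to 107403206, minus strand), a quinone reductase and the usual readout of Nrf2 activity, had 59.8, 52.2 and 60.5 CPM in the controls and 62.5, 58.6 and 55.1 CPM in the shSamd14 libraries. Its groups overlapped, and its fold was 1.02 (95% interval 0.915 to 1.14). Gclm (ENSMUSG00000028124; chromosome 3, 122245557 to 122270732, plus strand), the modifier subunit of the enzyme that starts glutathione synthesis, had 261.8, 234.9 and 244.3 CPM in the controls and 270.4, 283.5 and 255.3 CPM in the shSamd14 libraries. The groups overlapped only through control library 1 and shSamd14 library 3, and the fold was 1.09 (95% interval 0.992 to 1.2). In TPM they were apart: 255.58, 213.84 and 233.64 in the controls and 262.58, 273.3 and 265.31 in the shSamd14 libraries.

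Of the 10 genes, 0 passed an adjusted p of 0.05 as higher, 1 passed as lower (Bach1) and 9 did not pass, and adjusted p-values of those 9 ran from 0.38 for Gclm to 0.981 for Blvrb (edgeR's quasi-likelihood test). At an unadjusted p of 0.05 the count was again 0 higher and 1 lower, as it was with DESeq2 and with limma on log2(TPM + 1). The 1 gene was Bach1 each time, on which the set was selected, so its repeated call is no support. Over all 12670 genes tested, 1.32% passed as higher and 1.26% as lower, and 896 and 1004 genes did so at the unadjusted threshold. The groups did not overlap in CPM for 1 of the 10 genes, and for 20.7% of all genes tested. In TPM they were apart for 2 of the 10, Bach1 and Gclm, and for 18.8% of all genes. Of the 10 log2 fold changes 5 were positive and 5 negative, with a median of 0.01 beside 0.01 over all genes. Nothing is read from these counts, since the set was selected with this contrast known. An adjusted p above the threshold does not show that a level was equal: the intervals above still allow a rise of Hmox1 by up to 1.44-fold and of Gclm by up to 1.2-fold.

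The levels of the 10 genes spanned a wide range when compared per length. The mean TPM over all 6 libraries was 324 for Blvrb, 251 for Gclm, 77.9 for Nfe2l2, 63.8 for Nqo1, 31.5 for Mafg, 26.0 for Keap1, 23.3 for Mafk, 20.9 for Bach1, 14.6 for Hmox1 and 0.117 for Bach2. The ranges over the libraries overlapped for 3 pairs of neighbours in this order: Keap1 with Mafk, Mafk with Bach1, and Bach1 with Hmox1. In the controls alone Bach1 had 24.5 ± 2.35 TPM and Mafk 23.9 ± 1.12 TPM (SD, n = 3), whereas in the shSamd14 libraries Bach1 had 17.3 ± 1.24 TPM and Mafk 22.8 ± 1.65 TPM. Nfe2l2 was above Bach1 in every library, at 73.05 TPM or more against 26.74 TPM or less.

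**Figure D3:**
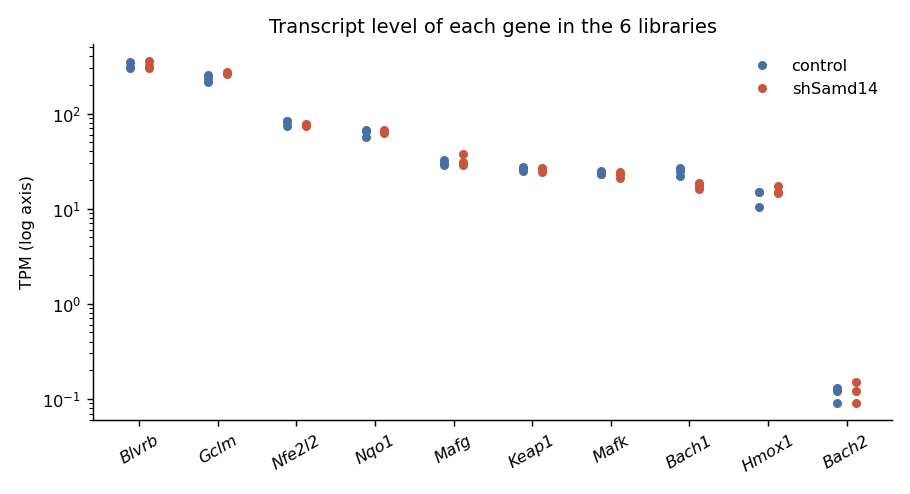
Transcript level of each gene in TPM on a log axis, with 1 point per library, control in blue and shSamd14 in red, ordered by the mean over the 6 libraries. Blvrb and Gclm are highest with means of 324 and 251 TPM, Bach2 is lowest with 0.117 TPM, and Bach1 is the gene whose colours are clearly apart.

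Across the 6 libraries, the genes whose log2 CPM followed Bach1 most closely, among 8773 genes with a mean of at least 10 CPM, were Nck1, Slc19a2, Ctnna1, Zfp263 and Samhd1, with Pearson correlations of 0.9948, 0.9945, 0.9942, 0.9937 and 0.9934. These are descriptions over 6 libraries that share the split into groups and their depth. Their log2 fold changes, -0.08, -0.21, -0.21, -0.17 and -0.11, were smaller than that of Bach1, and none of the 5 passed the edgeR test. With DESeq2, Slc19a2 and Ctnna1 passed, with adjusted p-values of 0.0376 and 0.0296. The 5 genes were picked by their values in these same 6 libraries, so such calls are no independent evidence. Among the named partners and targets, the correlation with Bach1 over the same 6 libraries was 0.52 for Mafk, 0.41 for Nfe2l2, 0.26 for Keap1, -0.06 for Blvrb, -0.08 for Nqo1, -0.18 for Mafg, -0.39 for Hmox1, -0.51 for Bach2 and -0.61 for Gclm.

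Beyond the 10 genes, 74 further genes of the pathway were listed by function, of which 68 had enough counts to be tested. Of these, 3 rose (Me1, Slc48a1 and Txn1), 2 fell (Flvcr1 and Gstm5) and 63 did not pass, beside 1.32% and 1.26% of all genes. The median log2 fold change of the 68 genes was 0.06, with 46 positive and 22 negative values. Over all genes the median was 0.01 and 51.6% were positive. At an unadjusted p of 0.05 there were 7 higher and 6 lower, beside 896 higher and 1004 lower of all 12670 genes. DESeq2 called 3 and 2, beside 185 and 229 over all genes. With limma on log2(TPM + 1) 1 gene passed as higher (Txn1) and 0 as lower, beside 106 and 62 over all genes. With edgeR, 0 genes of the 68 passed without control library 1, without control library 2 or without shSamd14 library 2.

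Of 12 tested genes that are described as repressed by Bach1 in the literature, 4 of them among the 10 genes above, 2 rose and 0 fell, beside 1.32% higher and 1.26% lower over all genes. The 2 were Me1 and Slc48a1, and with limma on log2(TPM + 1) 0 of the 12 passed in either direction. The median log2 fold change of the 12 was 0.03, with 8 positive and 4 negative values (66.7% positive, beside 51.6% over all genes). Ferritin, the iron store, is coded by Fth1 and Ftl1, whose log2 fold changes were 0.01 and 0.00 with adjusted p-values of 0.953 and 0.994 (edgeR). Gclc, the catalytic partner of Gclm, stood at -0.04, Txnrd1 at 0.02, Sqstm1 at -0.04 and the cystine carrier Slc7a11 at -0.26, all on the log2 scale, and none of the 4 passed.

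Me1 (chromosome 9, 86581371 to 86695953, minus strand), the cytosolic malic enzyme that makes NADPH, had 3.77, 3.62 and 4.37 CPM in the controls and 6.23, 6.08 and 6.82 CPM in the shSamd14 libraries. Every shSamd14 library was above every control, with means of 3.92 ± 0.40 and 6.37 ± 0.39 CPM (SD, n = 3), a fold of 1.63 (95% interval 1.31 to 2.01) and an adjusted p of 0.017 (edgeR). This is a low level, resting on 78 to 184 counts per library. The call was lost without control library 1 (adjusted p = 0.0789), control library 2 (0.0562) or shSamd14 library 2 (0.0679), and with limma on TPM (0.0586), while the log2 fold change stayed between 0.52 and 0.78. The other 5 genes of NADPH supply, among them G6pdx and Pgd of the pentose phosphate pathway, did not pass.

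Slc48a1 (chromosome 15, 97778520 to 97792692, plus strand), which carries heme out of the lysosome into the cytosol, had 107.9, 104.4 and 115.5 CPM in the controls and 131.5, 124.4 and 134.2 CPM in the shSamd14 libraries. The groups did not overlap, and the fold was 1.19 (95% interval 1.09 to 1.3) with an adjusted p of 0.0441 (edgeR). It overlaps Hdac7 on the opposite strand, which had 93.3 CPM. The heme exporter Flvcr1 (chromosome 1, 191005847 to 191026158, minus strand) went the other way, with 86.2, 83.2 and 79.1 CPM in the controls and 66.5, 71.6 and 65.8 CPM in the shSamd14 libraries. Its fold was 0.82 (95% interval 0.746 to 0.902) with an adjusted p of 0.0265 (edgeR). The remaining 7 genes of heme breakdown and iron, with Hmox2, Blvra and the iron exporter Slc40a1 among them, did not pass. Leaving out 1 library ended the call of Slc48a1 in 5 of 6 fits, all but the one without control library 3 (adjusted p 0.0418 to 0.169), and of Flvcr1 likewise (0.0325 to 0.114).

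Txn1 (chromosome 4, 57943373 to 57956411, minus strand), the thioredoxin that reduces protein disulphides, had 216.0, 235.4 and 232.0 CPM in the controls and 299.5, 280.8 and 253.0 CPM in the shSamd14 libraries. The groups did not overlap, and the fold was 1.22 (95% interval 1.1 to 1.35) with an adjusted p of 0.0413 (edgeR). None of the other 7 genes for thioredoxin and peroxide handling passed, Txnrd1, Prdx1, Srxn1 and catalase (Cat) included. Gstm5 (chromosome 3, 107895821 to 107898686, plus strand), a glutathione S-transferase, was the one of 15 tested glutathione genes that passed, beside 2.58% of all genes. It had 77.0, 77.6 and 78.6 CPM in the controls and 68.7, 64.7 and 59.2 CPM in the shSamd14 libraries, a fold of 0.825 (95% interval 0.748 to 0.911) with an adjusted p of 0.039 (edgeR). Gstm genes are close copies of each other, so reads may be divided between them. Leaving out 1 library ended the call of Txn1 in 5 of 6 fits, all but the one without shSamd14 library 3 (adjusted p 0.0158 to 0.207), and that of Gstm5 in all but the one without shSamd14 library 1 (0.0304 to 0.129).

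**Figure D4:**
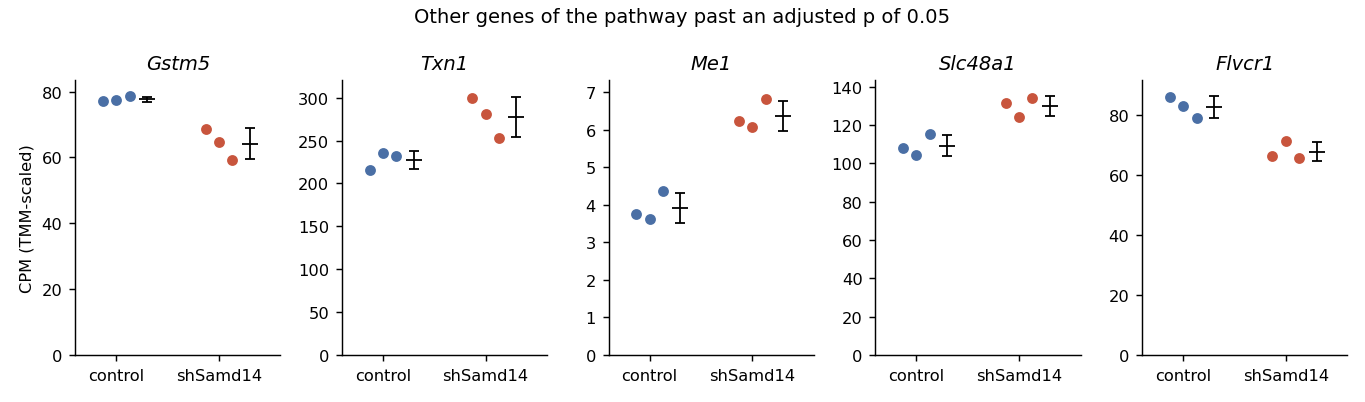
The 5 further pathway genes past an adjusted p of 0.05, in CPM (linear axes from 0), with 1 point per library and the mean ± SD of 3 libraries in black. In all 5 panels the control points (blue) and the shSamd14 points (red) are apart, with Me1 rising from 3.92 to 6.37 CPM and Gstm5 and Flvcr1 lower in the shSamd14 libraries.

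These 5 genes differed in the words described for Bach1. Both genes that fell held CAAGTGT, and Txn1, which rose, held CTGATTA and also AAGTGTA. Me1 and Slc48a1 held none of the 4 words. The places are shown for comparison with those of Bach1.
Flvcr1, minus strand, chr1:191007129-191007156: cgagtgggacCAAGTGTAttttcacagt
Gstm5, plus strand, chr3:107898215-107898241: tatttgagccCAAGTGTctggatgagt
Txn1, minus strand, chr4:57943785-57943811: caactgccatCTGATTAtaaatgacaa
Of the 68 further genes tested, 8 held CAAGTGT or AAGTGTA and 6 held CTGATTA or TGATTAA, beside 22.8% and 14.9% of all genes searched. These shares too were not matched for 3′ UTR length. Gpx4, Srxn1, Pgd, Akr1a1 and Akr1b3 held the first pair, and Cul3, Btrc, Gsk3b, Fbxl17 and Gclc the second, and none of these genes passed. The part of the words in the differences of the 5 genes was not tested.

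Promoters were searched for the element that Bach1 and Nrf2 dimers bind, on both strands, in RefSeq promoters (GRCm38.p6) that run from 250 bases before to 50 bases after the start site. Bases outside this window were not searched, so a gene without a match here may hold the element elsewhere. The loose form TGACNNNGC stood in 12.4% of 32851 promoters, and the stricter TGANTCAGC in 1.19%. Counted by gene, as below, this was 14% and 1.37% of 27025 genes. The forms share matches, since TGACTCAGC fits both. Of the 10 genes 9 had a promoter in this table, all but Hmox1. The loose form was found in 4 of these 9 and the strict form in 0, printed here with the match in capitals, 5′ to 3′ on the strand that matches.
Nfe2l2, minus strand, chr2:75704885-75704913: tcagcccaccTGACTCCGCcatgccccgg
Mafk, minus strand, chr5:139791513-139791541: tccccagtacTGACACCGCttccgggatc
Mafg, plus strand, chr11:120633751-120633779: ctcgccgggtTGACCGTGCtcctgcagag
Gclm, minus strand, chr3:122245413-122245441: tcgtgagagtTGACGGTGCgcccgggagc
Among the 68 further genes tested, 56 had a promoter in the table, 17 of these held the loose form and 6 the strict form, the latter being Me1, Prdx1, Srxn1, Gstp1, Osgin1 and Htatip2. Of the 6, 1 passed the test (Me1). Its match is set beside those of 3 genes for peroxide and redox defence that did not pass.
Me1, minus strand, chr9:86695902-86695930: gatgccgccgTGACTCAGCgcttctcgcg
Prdx1, minus strand, chr4:116685456-116685484: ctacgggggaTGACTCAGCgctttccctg
Srxn1, plus strand, chr2:152105469-152105497: aaattcacccTGAGTCAGCggccgggcgc
Osgin1, minus strand, chr8:119437038-119437066: ttcataagcgTGAGTCAGCaggggcccct
Me1, Prdx1 and Htatip2 carry the same 9 bases, and their log2 fold changes were 0.70, -0.15 and 0.04. Adjusted p-values of Prdx1 and Htatip2 were 0.328 and 0.85 (edgeR). Srxn1 stood at 0.01 and Osgin1 at 0.32 on the log2 scale, with adjusted p-values of 0.977 and 0.459. Of the 5 further genes past the threshold, Me1, Gstm5 and Flvcr1 held the loose form and Txn1 held neither, while Slc48a1 had no promoter in the table and was not searched. A match is a stretch of letters and was not tested for binding.

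The remaining groups held no gene past the threshold, beside 2.58% of all genes tested. In lists this short a count of 0 is near that share, and nothing is read from it. Of 3 tested relatives of the CNC and small Maf factors, Maff, the third small Maf, had 18.2, 16.2 and 16.1 CPM in the controls and 14.8, 12.9 and 10.4 CPM in the shSamd14 libraries. Its groups did not overlap, but its log2 fold change of -0.41 (SE 0.12) had an adjusted p of 0.104 (edgeR). Without shSamd14 library 1 it passed, with an adjusted p of 0.0304. Nfe2, the CNC factor that binds such elements in the globin locus control region, had 146.6, 132.6 and 148.2 CPM against 154.1, 154.9 and 163.9 CPM, apart but with an adjusted p of 0.278. Of 10 genes for the Keap1 ligase and the turnover of Bach1, 0 passed at the adjusted or at the unadjusted threshold. They include Cul3, Fbxo22, Fbxl17 and the export receptor Xpo1, and 0 passed with DESeq2 or with limma on TPM. Over all 12670 genes, 896 were higher and 1004 lower at the unadjusted threshold. Rbx1, the ring subunit of the ligase, had the smallest p of these 10, with a log2 fold change of -0.14 and an adjusted p of 0.482. Of 11 tested genes for quinones, carbonyls and drugs, Esd came nearest, with a fold of 1.13 (95% interval 1.03 to 1.24) and an adjusted p of 0.176.

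The 6 tested globin genes had the highest median log2 fold change of the lists, 0.68, with wide intervals. Of them 0 passed the adjusted threshold, beside 2.58% of all genes, and 0 passed with DESeq2 or with limma on TPM. At an unadjusted p of 0.05, 1 passed (Hbb-bt). Hbb-bt had 403.4, 260.4 and 493.1 CPM in the controls and 694.4, 559.9 and 714.1 CPM in the shSamd14 libraries. Its lowest shSamd14 library lay above the highest control, but with a 95% interval of the fold of 1.03 to 2.8 its adjusted p was 0.303 (edgeR). With the replicate number in the edgeR model it passed (adjusted p = 4.7e-06), but these numbers were not taken as a pairing. Hbb-bs was also apart in CPM, with an adjusted p of 0.368 (edgeR without the replicate number). The other 4 tested globin genes overlapped, while 20.7% of all genes were apart. The adult genes Hba-a1 and Hba-a2 are near-identical copies, as are Hbb-bs and Hbb-bt, so reads may be divided within each pair. The embryonic genes Hbb-bh1 and Hbb-y were low, with control means of 0.658 and 1.29 CPM. Their log2 fold changes were -0.52 and 0.73, and neither passed the test. Of the maturing erythroid markers, Slc4a1 averaged 20.5 CPM in the controls and 38.0 CPM in the shSamd14 libraries, Epb42 18.2 and 24.4 CPM, and Alas2 28.3 and 34.8 CPM. Neither these markers nor Tfrc, given above, passed the test. Their part in the globin levels was not tested.

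**Figure D5:**
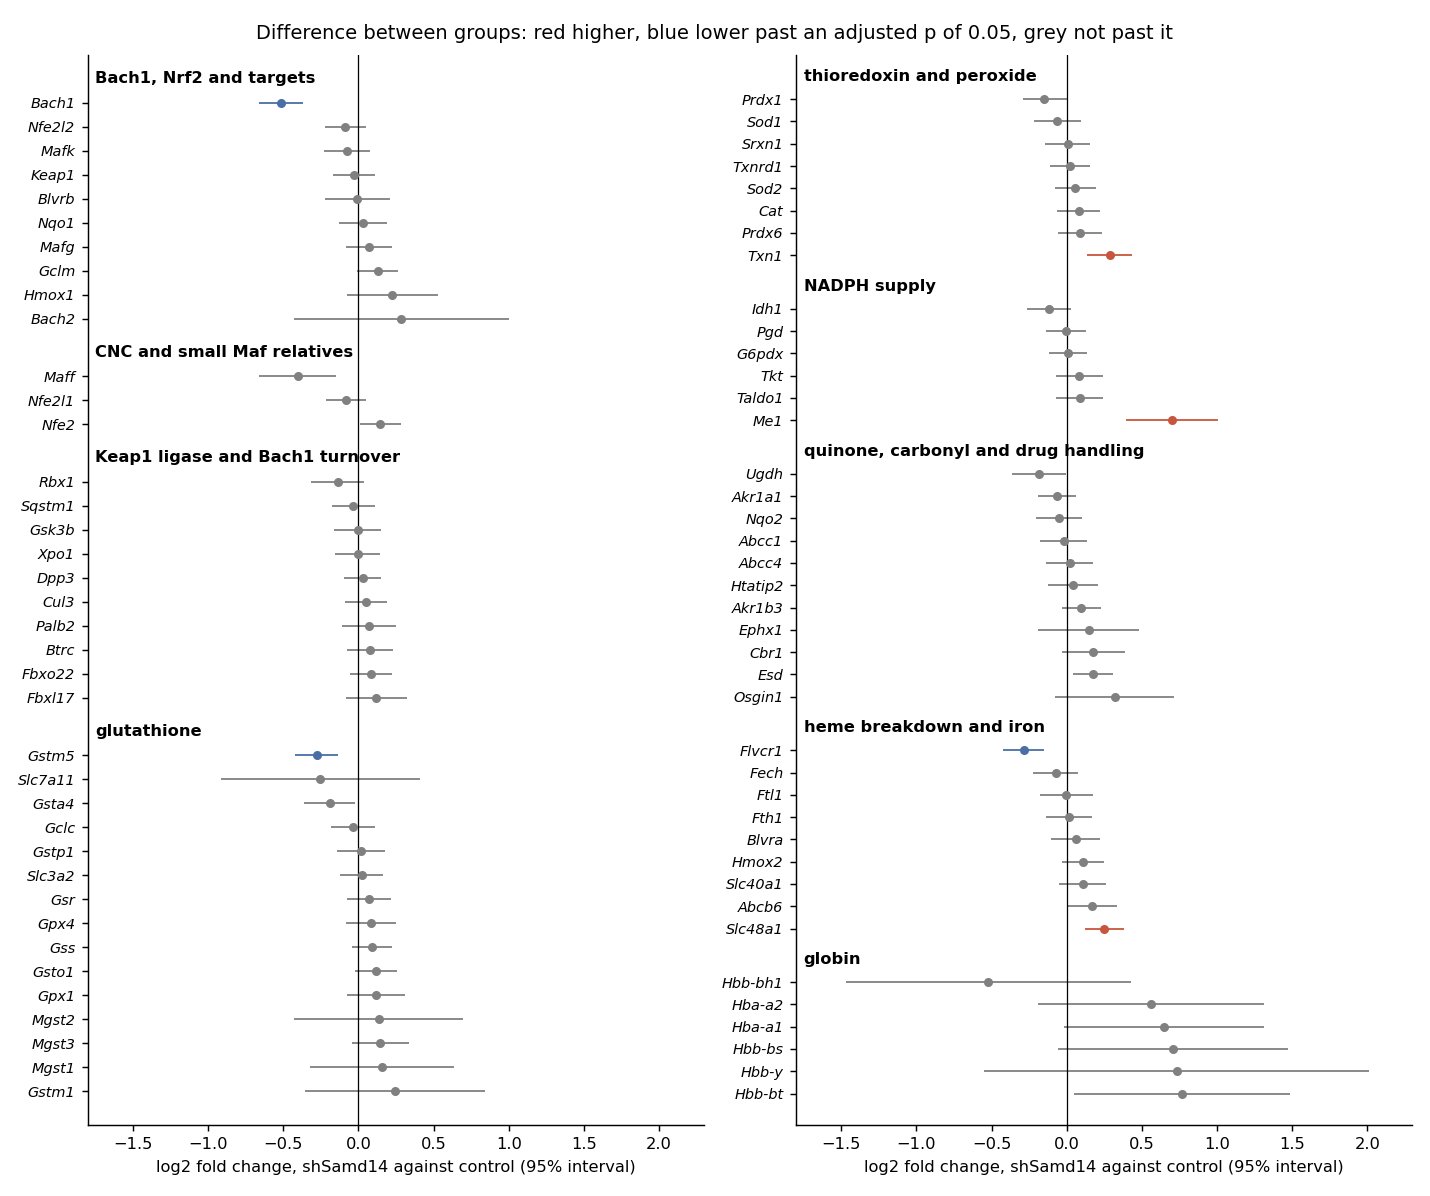
Log2 fold change of shSamd14 against control with its 95% interval for each of the 10 genes and the 68 further tested genes, grouped by role. Red and blue mark genes past an adjusted p of 0.05. Bach1 at -0.51 lies below the other 9 genes, Me1 at 0.70 is the highest gene past the threshold, and the globin intervals are wide.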

How the data were processed

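Values per gene come from RSEM tables, 1 for each library. Per the file headers, the authors gave expected counts beside TPM and FPKM. FPKM, as deposited, was read only as a check against TPM (they differed by no more than 1.23% where TPM reached 1). RSEM 1.2.15, Bowtie 1.0.1, CASAVA 1.8.2 and the mm10 build are listed in the submitters' processing notes, without roles. The annotation and the use of strand are not stated there. Of 24376 IDs, 23580 had a symbol in GENCODE M21, which also gave coordinates and UTRs (3′ UTRs of at least 50 bases). After rounding, expected counts were tested in R 4.3.3 with edgeR 4.0.16 (filterByExpr, minimum count 10 and total 15; TMM factors 0.986 to 1.021; robust quasi-likelihood test, two-sided; Benjamini-Hochberg adjustment over 12670 genes). A 95% interval comes from the same fit. The procedure was tested on simulated data. Alternatives were DESeq2 1.42.0, limma 3.58.1 on log2(TPM + 1), other size factors and filters, a replicate block, and leaving out each library. Libraries of a group differed by more than sampling noise (chi-square per gene 5.73 to 12.16).

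The 10 genes and all lists were chosen with earlier results of these data known. The genes named are Samd14, the 10, in each list up to 4 genes past the threshold or else the one with the smallest p, and the 5 genes most correlated with Bach1, beside cell type markers. Genes named outside this rule (such as Fth1, Prdx1, Osgin1 and Nfe2) were chosen after their values were seen. A withheld item is not reported here.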

Additional observations from a re-analysis of the deposited data

How the results depend on the processing

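Among 12670 genes, 327 passed (167 higher, 160 lower). Limma on log2(TPM + 1) gave 168 (106 and 62), and no filter on low counts gave 261 lower. Leaving out 1 library gave 128 to 283 (63 to 133 higher, 65 to 163 lower). Of the 68 further pathway genes, 3 rose and 2 fell. This became 1 and 0 with limma, and 0 to 4 and 0 to 2 without 1 library, with fewer samples in each such fit. Same-numbered libraries did not all deviate together (correlations -0.072, 0.153 and 0.272 for numbers 1, 2 and 3), and shSamd14 library 1 correlated best with control library 2, so the numbers were not taken as a pairing. With the replicate block 682 genes passed (322 higher, 360 lower), 8 of the 68 as higher and 3 as lower. The log2 fold change of Bach1 ran from -0.57 to -0.48 over 13 alternatives, given as a description, and the other 9 of the 10 genes passed in none they were tested in. The log2 fold changes near 0 changed sign in 8 cases: Keap1 (0.007 without shSamd14 library 2; range over the 6 libraries left out -0.086 to 0.007), Mafg (-0.008 without shSamd14 library 3; -0.008 to 0.114), Nqo1 (-0.035 without control library 2 and -0.025 without shSamd14 library 1; -0.035 to 0.071) and Blvrb (0.022 with limma, and 0.073, 0.047 and 0.032 without control library 3 or shSamd14 library 2 or 3; -0.12 to 0.073). The cause of these changes was not tested. Among the genes named, Maff passed with no filter (adjusted p = 0.0325) and with the block (0.0112), Hbb-bt with the block (4.7e-06), Slc19a2 with DESeq2 (0.0376), Ctnna1 with DESeq2 (0.0296) and with the block (0.0469), and Slc48a1 missed the threshold with upper-quartile factors (0.0528). Depth limits Bach2, at 9 to 21 counts per library, and to a lesser degree Me1.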
